A study of Mus musculus with 30 samples.

Results

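Regulators of G protein signalling (RGS proteins) bind active G alpha subunits and speed the hydrolysis of their GTP, so that a signal from a G protein coupled receptor ends sooner. In the vessel wall, noradrenaline, angiotensin II, endothelin and thromboxane raise the tone of smooth muscle through Gq and G12/13, and RGS proteins that act on Gq or Gi dampen such signals. Rgs5 is known as an abundant transcript of arterial smooth muscle cells and pericytes. Rgs2 is known as a brake on Gq in vascular smooth muscle, and mice that lack it are hypertensive.

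Followed here were 8 genes of the family, Rgs1, Rgs2, Rgs3, Rgs4, Rgs5, Rgs10, Rgs14 and Rgs16, out of the 41128 genes listed for each of the tissues, aorta and kidney. The members were selected on a value measured in these samples, a higher level of Rgs5 in KO than in WT aortae. The comparison of KO with WT aortae is therefore given as a description without a test, for Rgs5 and for all other genes. The same holds for the diet by genotype interaction of Rgs5 in the aorta, which is the difference of its KO against WT values on the diets. Diet effects within a genotype or averaged, the interaction for the other members and all kidney comparisons were tested.

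The mice were male C57BL/6 (C57Bl6J in the labels). In KO mice the floxed Egfr gene was deleted by Smmhc-Cre, a tamoxifen-inducible Cre recombinase driven by the smooth muscle myosin heavy chain promoter (Myh11), so that deletion was directed at vascular smooth muscle cells and not at the other cells of either organ. Control mice, called WT, had the Cre but no loxP sites and, like KO mice, were injected with 1 mg tamoxifen per day for 5 days. Feeding of a standard fat diet (SFD) or a high fat diet (HFD) began 7 days later, at 6 weeks of age, and lasted 18 weeks. Aortae came from 3 WT-SFD, 4 WT-HFD, 3 KO-SFD and 4 KO-HFD mice, and kidneys from 4 mice of each group. Samples are named by group and a number within the tissue, which gives no order and pairs nothing. The aorta and kidney WT-SFD 1 came from the same mouse, as did aorta KO-SFD 1 and kidney KO-SFD 3, and aorta KO-HFD 3 and kidney KO-HFD 2, so that the tissues are not fully independent. Each library came from a single mouse.

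Of the 8 members, 5 lie on mouse chromosome 1 (GRCm38). Rgs5 (ENSMUSG00000026678) runs from 169655501 to 169695813 on the plus strand. Rgs4 lies next to it, from 169741477 to 169747642 on the minus strand, with 45663 bases between the facing 3′ ends. Rgs2 (143999338 to 144004161) and Rgs1 (144242296 to 144249242) form a second pair, both on the minus strand, and Rgs16 (153740349 to 153745468, plus strand) lies between the pairs. Rgs3 is on chromosome 4 (62559847 to 62704001, plus strand), Rgs10 on chromosome 7 (128373621 to 128418758, minus strand) and Rgs14 on chromosome 13 (55369732 to 55384687, plus strand). Reads were counted per gene, so isoforms of a member, such as the long and short forms of Rgs3, cannot be told apart.

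Promoter sequence from RefSeq (GRCm38.p6) was matched for 6 of the 8 members, without Rgs1 and Rgs14. The 250 bases before the RefSeq start are shown for the neighbours Rgs5 and Rgs4, which differ widely in level in the aorta. They are also shown for Rgs2, the other member known for a role in vascular tone. The RefSeq start of Rgs2 lies a few bases inside the gene span given above, so that its window overlaps the end of that span. The windows are chr1:169655251-169655500 (plus strand), chr1:169747643-169747892 (minus strand) and chr1:144004150-144004399 (minus strand), printed 5′ to 3′ in lower case. Capitals mark matches on either strand to the GC box GGGCGG, the TATA box TATAAA, the cAMP response element core TGACG, the AP-1 site TGAGTCA or the CArG box, the binding element of serum response factor.
Rgs5: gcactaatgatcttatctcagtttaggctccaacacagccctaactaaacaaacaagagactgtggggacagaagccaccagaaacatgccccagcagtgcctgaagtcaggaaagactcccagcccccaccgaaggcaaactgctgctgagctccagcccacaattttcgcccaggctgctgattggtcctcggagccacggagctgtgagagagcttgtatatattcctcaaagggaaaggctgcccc
Rgs4: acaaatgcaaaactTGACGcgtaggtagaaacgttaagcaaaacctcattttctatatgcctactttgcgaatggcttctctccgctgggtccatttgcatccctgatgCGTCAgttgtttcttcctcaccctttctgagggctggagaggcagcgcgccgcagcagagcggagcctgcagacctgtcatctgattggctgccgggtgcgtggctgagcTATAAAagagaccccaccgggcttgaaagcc
Rgs2: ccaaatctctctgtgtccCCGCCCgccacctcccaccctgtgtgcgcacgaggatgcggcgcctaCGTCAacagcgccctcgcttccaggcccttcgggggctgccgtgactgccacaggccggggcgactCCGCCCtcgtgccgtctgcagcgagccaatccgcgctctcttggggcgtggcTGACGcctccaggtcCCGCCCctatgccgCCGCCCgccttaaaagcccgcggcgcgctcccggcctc

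The Rgs5 window held no match to any of the 5 motifs, which says only that these letters are not in these 250 bases. In the Rgs4 window, TATAAA lay 31 to 26 bases before the start, and TGACG was matched at 236 to 232 and, on the opposite strand, at 141 to 137 bases. The Rgs2 window held 4 matches to GGGCGG and 2 to TGACG, and its GC content was 72.4% against 53.6% for both neighbours. Among all 32851 promoters of the same length, 32.7% held GGGCGG, 17.8% TGACG, 12.4% TATAAA, 4.46% TGAGTCA and 1.47% a CArG box. A match is a stretch of letters and no measured site.

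Sequencing depth and tissue content set the precision. The total count was 6403699 to 13052870 per aorta library (median 8998366) and 16354880 to 28331314 per kidney library (median 19544128). Levels are given in FPM, the CPM of the assigned fragments after scaling of the libraries with TMM factors, and levels between genes as FPKM, which is FPM per kilobase of exon. Aortae and kidneys were sequenced at different places and scaled separately, so that a level in the aorta set beside a level in the kidney is not scaled to it. Genes of small and structural RNAs took 18.4% to 43.1% of the aorta counts and at most 0.126% of the kidney counts.

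Before the results, 4 aortae have to be set apart. The summed level of 17 adipocyte markers was 5457 FPM in WT-SFD 1, 4001 FPM in WT-SFD 2, 3424 FPM in KO-SFD 1 and 1436 FPM in KO-SFD 2. In the other 10 aortae, which include WT-SFD 3, KO-SFD 3 and all mice on HFD, this sum was 515 to 679 FPM. The most abundant of these markers was Plin4, a lipid droplet protein, at a mean of 413 FPM, and none of the 17 was without reads in the aortae. The summed smooth muscle markers were lower in the first 3 of these aortae, at 10944, 13531 and 11742 FPM, than in the other 10 aortae (16223 to 19579 FPM), whereas KO-SFD 2 had 17255 FPM. In bulk tissue, fewer cells of a type and less RNA per cell cannot be told apart. The aorta results were therefore recomputed without WT-SFD 1, WT-SFD 2 and KO-SFD 1, which leaves a single WT-SFD aorta that is assumed to vary like the other groups.

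The labelled tissues matched their markers. In the aorta, Acta2 and Myh11, the smooth muscle actin and myosin, had mean levels of 3167 and 836 FPKM, while Slc34a1, the phosphate transporter of the renal proximal tubule, had at most 2 reads per library. Tagln and Cnn1, further smooth muscle markers, were not analysed here. In the kidney, Slc34a1 had a mean level of 1602 FPKM, and Acta2 and Myh11 had 12.0 and 2.47 FPKM.

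Egfr, the deleted gene, had 46.7, 39.5 and 54.3 FPM in WT-SFD aortae and 26.8, 35.5 and 28.01 FPM in KO-SFD aortae. WT-HFD aortae had 65.1, 57.0, 51.2 and 57.0 FPM of Egfr, and KO-HFD aortae 27.5, 40.6, 39.7 and 33.4 FPM. The genotypes did not overlap on either diet, with KO below WT. KO against WT was, on the log2 scale, -0.64 (SE 0.166) with SFD and -0.70 (SE 0.142) with HFD, given without a test. These counts cover all exons and all cells of the aorta. In the kidney, Egfr was at 36.9 to 60.8 FPM over all 16 mice and the genotypes overlapped on both diets, so that the deletion is not seen in whole kidney.

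**Figure D1:**
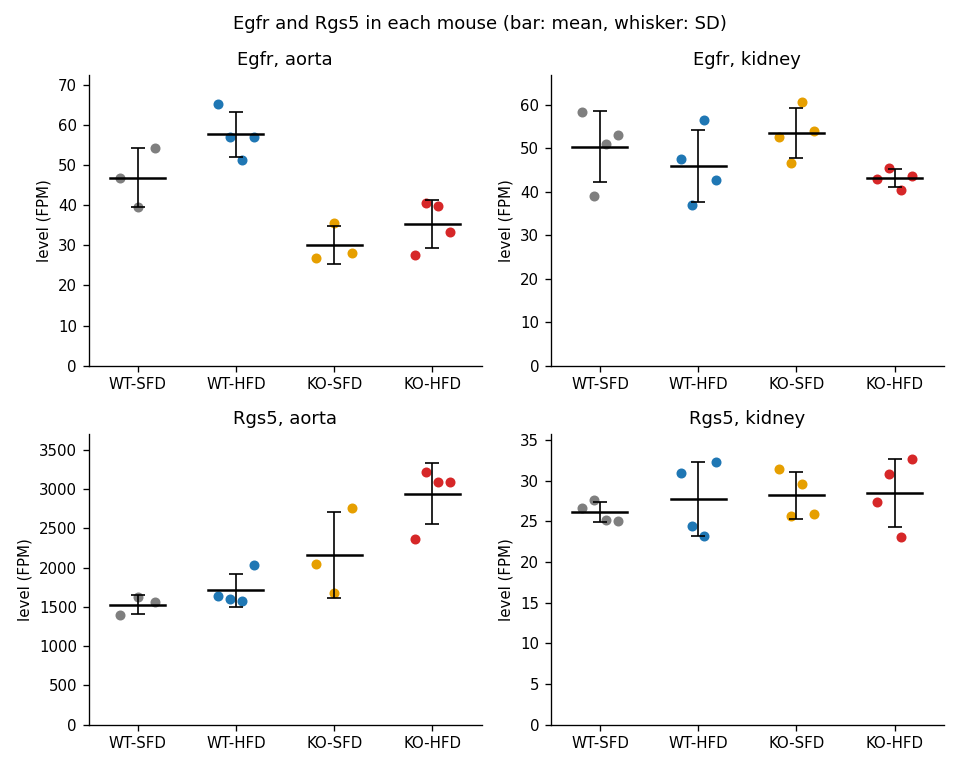
Levels of Egfr (top) and Rgs5 (bottom) in FPM (y axes, from 0) in each aorta (left) and kidney (right) of the 4 groups, with 1 point per mouse, the mean as bar and the SD as whisker. In the aorta, Egfr is lower and Rgs5 higher in all KO mice than in all WT mice on the same diet, and in the kidney both genes overlap between genotypes.

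Rgs5 was by far the most abundant member in the aorta. Its mean level was 467 FPKM (range 307 to 708 over 14 libraries), followed by Rgs4 with 18.2 FPKM (9.43 to 23.9). Rgs3 (6.48 FPKM, range 5.58 to 7.24) and Rgs2 (6.46 FPKM, range 2.63 to 9.91) came next and overlapped each other. Rgs10, which acts on Gi and is known from immune cells, had 2.07 FPKM (1.45 to 2.63). Rgs14, Rgs16 and Rgs1 were at mean levels of 0.173, 0.152 and 0.130 FPKM with overlapping ranges. Rgs16 had no read in 4 of 14 aortae. Rgs5 alone took 90.3% to 95.5% of the summed FPM of the 8 members (median 92.3%). For scale, Gnaq, the alpha subunit of Gq, was at 17.5 FPKM in the aorta.

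The order differed in the kidney. Rgs5 had 6.08 FPKM (range 5.08 to 7.18 over 16 libraries) and Rgs2 5.31 FPKM (3.60 to 6.70), with overlapping ranges. Rgs10 (1.91 FPKM, range 1.30 to 2.62) and Rgs3 (1.54 FPKM, range 1.14 to 2.16) overlapped as well. Rgs4, Rgs14, Rgs16 and Rgs1 followed with 0.473, 0.297, 0.229 and 0.0489 FPKM, and Rgs1 had no read in 2 of 16 kidneys. Rgs5 took 32.5% to 43.3% of the members' summed FPM (median 39.2%).

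**Figure D2:**
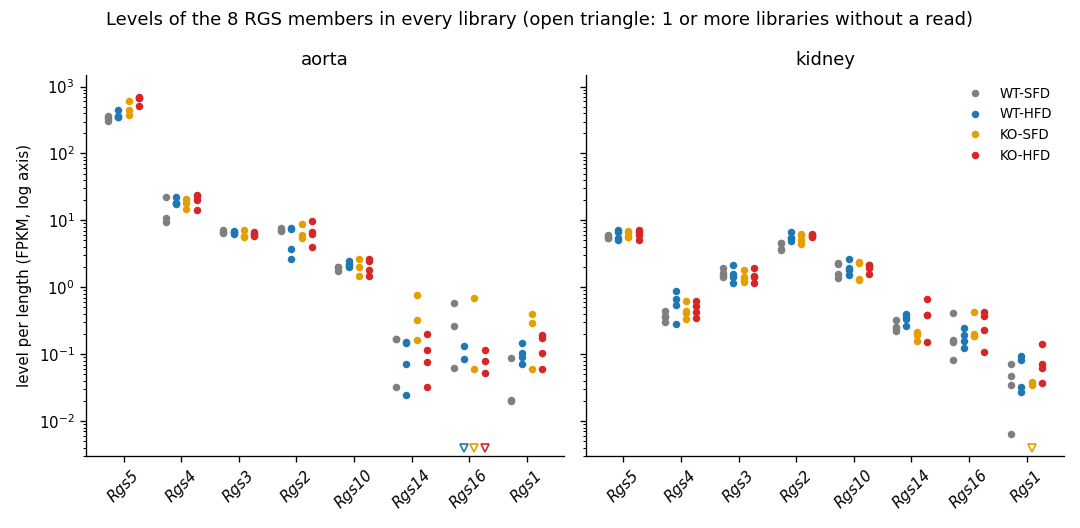
Level per length in FPKM (y axis, log scale) of the 8 members in every library of the aorta (left) and the kidney (right), with 1 point per mouse coloured by group and open triangles for groups with libraries without a read. In the aorta all points of Rgs5 lie at or above 307 FPKM and all points of Rgs4, the next gene, at or below 23.9 FPKM, and in the kidney Rgs5 and Rgs2 overlap.

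Of the other 15 genes on the list of RGS family genes, Rgs7bp, which anchors Rgs7 to the membrane, was the most abundant in the aorta (13.2 FPKM), followed by Rgs7 itself (3.43 FPKM) and Rgs19 (2.55 FPKM). In the kidney, Rgs11 (4.95 FPKM), Rgs19 (2.08 FPKM) and Rgs12 (1.72 FPKM) led this list.

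Rgs5 was higher in KO than in WT aortae, the value by which the members were chosen. It had 1393, 1626 and 1568 FPM in WT-SFD and 2042, 1681 and 2764 FPM in KO-SFD aortae. WT-HFD aortae had 1642.3, 1603, 1570 and 2029 FPM of Rgs5, and KO-HFD aortae 2362, 3221, 3096 and 3098 FPM. The genotypes did not overlap on either diet, but the lowest KO-SFD aorta (1681 FPM) lay only just above the highest WT-SFD aorta (1626 FPM). Group means were 1529 ± 121 FPM (SD, n = 3) in WT-SFD, 1711 ± 214 FPM (SD, n = 4) in WT-HFD, 2162 ± 551 FPM (SD, n = 3) in KO-SFD and 2944 ± 392 FPM (SD, n = 4) in KO-HFD. The ratio of means, KO over WT, was 1.41 with SFD and 1.72 with HFD.

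On the log2 scale of the edgeR fit, Rgs5 in KO against WT was 0.50 (SE 0.194) with SFD, 0.78 (SE 0.169) with HFD and 0.64 (SE 0.129) averaged over the diets. The SFD value depended on single aortae: it was 0.32 without KO-SFD 3 and 0.67 without KO-SFD 2, whereas the HFD value ran from 0.74 to 0.88 with each library left out in turn. Without WT-SFD 1, WT-SFD 2 and KO-SFD 1 the values were as large, at 0.51 with SFD and 0.78 with HFD. With the mean of the adipocyte markers as a covariate they were 0.45 and 0.76. With library totals instead of TMM factors, scaling moved the median gene of KO against WT with SFD by 0.29, and Rgs5 was then at 0.81, or 0.54 above that median. The summed pericyte markers, most abundant Abcc9 and Pdgfrb, did not separate the genotypes: they were 600, 584 and 881 FPM in WT-SFD and 668, 810 and 851 FPM in KO-SFD, and 744 to 900 FPM in WT-HFD and 739 to 933 FPM in KO-HFD aortae. Of this list of 10 markers, Cspg4 and Mcam were not analysed here. Higd1b reached at most 0.955 FPM and Vtn at most 5.32 FPM in any aorta. The part of pericytes in the level of Rgs5 was not tested.

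The other members of the fit are given for the same comparison as a description only. Rgs4, the neighbour of Rgs5 and a regulator of Gq and Gi, had a log2 fold change of 0.36 with SFD and 0.10 with HFD. Its SFD value was 0.14 without WT-SFD 1, 0.83 without WT-SFD 3 and -0.17 without WT-SFD 1, WT-SFD 2 and KO-SFD 1. Its HFD value ran from 0.01 (without KO-HFD 3) to 0.24 (without KO-HFD 1). Rgs2 had -0.13 and 0.32, Rgs3 -0.13 and -0.11, and Rgs10 0.06 and -0.06. The HFD value of Rgs2 ran from 0.07 (without KO-HFD 1) to 0.53 (without WT-HFD 4). The SFD value of Rgs3 ran from -0.25 (without KO-SFD 1) to -0.04 (without KO-SFD 2). With library totals instead of TMM factors, the SFD values of Rgs3, Rgs10 and Egfr were 0.15, 0.35 and -0.34, where the median gene had moved by 0.29. Rgs1, known from lymphocytes as a brake on chemokine receptors, had 2.41 (SE 0.696) with SFD and 0.44 with HFD, but on 1 to 30 reads per library. The SFD value was 3.56 without WT-SFD 2, 1.88 without KO-SFD 3 and 3.48 without WT-SFD 1, WT-SFD 2 and KO-SFD 1. Its levels were 0.136, 0.615 and 0.144 FPM in WT-SFD and 2.01, 0.418 and 2.72 FPM in KO-SFD aortae, and KO-SFD 2 lay among the WT aortae. Because Rgs1 passed the filter on low counts through KO aortae alone, no conclusion is drawn from its KO against WT values.

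Rgs14 and Rgs16 did not pass the filter on low counts in the aorta. Rgs14, which binds Gi through 2 domains, reached 3.21 FPM in KO-SFD 1 and 1.36 FPM in KO-SFD 3 and at most 0.845 FPM in the other 12 aortae. Rgs16 was at 0 to 1.61 FPM, highest in KO-SFD 1 and WT-SFD 1, both rich in adipocyte markers. The summed leucocyte markers were 121, 112 and 131 FPM in WT-SFD and 270, 184 and 184 FPM in KO-SFD aortae, so that they did not overlap with SFD, as for Rgs5. With HFD they overlapped, at 124 to 210 FPM in WT and 103 to 261 FPM in KO aortae. Of the 10 leucocyte markers 8 had reads, led by Lyz2 with a mean of 54.7 FPM, and Adgre1 and Cd3e were not analysed here. Their part in the SFD values of Rgs5, Rgs1, Rgs14 and Rgs16 was not tested.

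HFD against SFD was the first tested comparison of the aorta. None of the 6 members tested (5 for the interaction, without Rgs5) was called, that is, reached an edgeR adjusted p (Benjamini-Hochberg over 14796 genes) under 0.05. The share called among all genes was 0% in WT aortae, 0% in KO aortae, 3.95% (54 genes higher and 530 lower with HFD) averaged over the genotypes and 0% for the interaction of diet and genotype, that is, the diet effect in KO less that in WT. At an unadjusted p under 0.05 stood 0 of the 6 members in WT, against 17.0% of all genes. In KO it was 1 (Rgs5, against 7.85%) and averaged 1 (Rgs5, against 18.8%). For the interaction it was 1 of 5 (Rgs1), against 4.37%. Rgs1 passed the filter on low counts through KO aortae alone, so that its interaction supports no conclusion. DESeq2 called 0 members in each of these comparisons, against 666 of all genes in WT, 8 in KO, 1007 averaged and 2 for the interaction. The median log2 fold change of the members, averaged over the genotypes, was 0.12, against -0.0048 over all genes.

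Rgs5 was higher with HFD in KO aortae by a log2 value of 0.45 (SE 0.183, 95% interval 0.09 to 0.80, edgeR adjusted p = 0.582) and in WT aortae by 0.16 (SE 0.182, edgeR adjusted p = 0.704). Neither passed the test. Without WT-HFD 4 the WT value was 0.07. The KO value ran from 0.30 (without KO-SFD 2) to 0.65 (without KO-SFD 3). In KO, the highest SFD aorta (2764 FPM) lay above the lowest HFD aorta (2362 FPM), and in WT the diets overlapped too. Averaged over the genotypes the value was 0.30 (SE 0.129, edgeR adjusted p = 0.219). The interaction was 0.28 (SE 0.257), given without a test because it is the difference of the KO against WT values used for the choice. It ran from 0.11 without KO-SFD 2 to 0.46 without KO-SFD 3, and was 0.05 with library totals, where the median gene moved by -0.22.

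Rgs4 was low in the aortae richest in adipocyte markers. Its levels were 29.2, 33.5 and 68.4 FPM in WT-SFD, 56.9, 68.7, 55.3 and 56.1 FPM in WT-HFD, 46.1, 57.1 and 64.3 FPM in KO-SFD and 44.0, 63.2, 74.0 and 72.2 FPM in KO-HFD aortae. The lowest values belonged to WT-SFD 1 and WT-SFD 2, which had the highest adipocyte sums, followed by KO-HFD 1 (adipocyte sum 589 FPM) and KO-SFD 1. The diet effect was 0.44 (SE 0.249, edgeR adjusted p = 0.391) in WT, 0.18 (edgeR adjusted p = 0.882) in KO and 0.31 (SE 0.175, edgeR adjusted p = 0.363) averaged. Without WT-SFD 3, the only WT-SFD aorta poor in adipocyte markers, the value in WT was 0.92 (edgeR adjusted p = 0.00569). Without WT-SFD 1 alone the value in WT was 0.22. Without WT-SFD 1, WT-SFD 2 and KO-SFD 1 the diet effect was -0.20 in WT and -0.07 averaged. The interaction was -0.26 (SE 0.349, edgeR adjusted p = 0.998), and 0.26 without these aortae. It was -0.73 without WT-SFD 3 and -0.04 without WT-SFD 1.

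**Figure D3:**
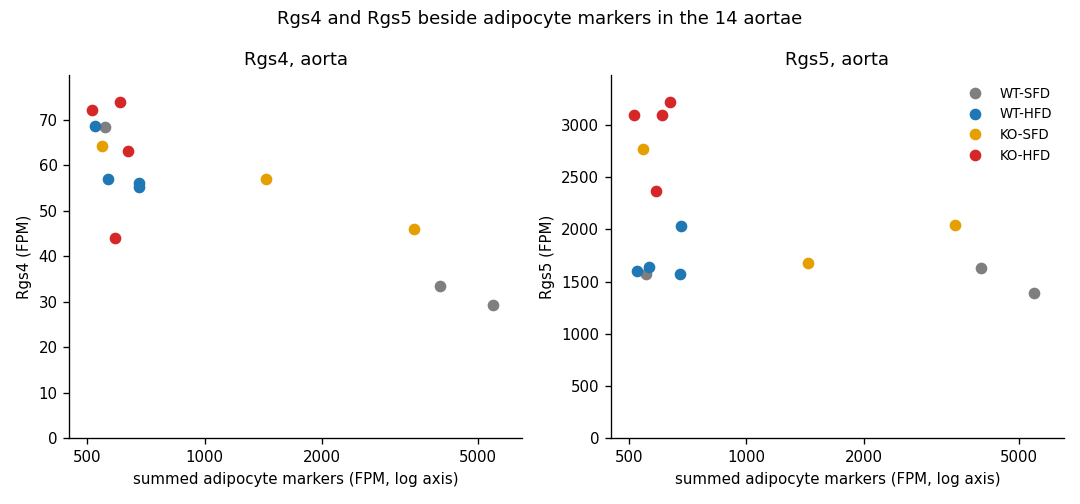
Levels of Rgs4 (left) and Rgs5 (right) in FPM (y axes, from 0) against the summed level of 17 adipocyte markers in FPM (x axis, log scale) in the 14 aortae, with 1 point per mouse coloured by group. The 3 aortae with sums of 3424 to 5457 FPM have 29.2 to 46.1 FPM of Rgs4. Rgs5 is higher in all KO than in all WT aortae on the same diet, which is the value used for the choice. All HFD aortae have sums of 515 to 679 FPM, so that high sums occur with SFD only, and in few mice. The part of adipocytes in the level of Rgs5 cannot be read from this plot.

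Rgs2 varied widely among the HFD mice. It had 25.5, 28.1 and 26.1 FPM in WT-SFD, 13.7, 9.55, 27.002 and 27.6 FPM in WT-HFD, 31.5, 21.7 and 19.9 FPM in KO-SFD and 35.9, 14.3, 22.8 and 24.2 FPM in KO-HFD aortae. In WT, WT-HFD 1 and WT-HFD 2 were low and the other 2 lay within the range of the SFD mice. The diet effect was -0.46 (SE 0.336, edgeR adjusted p = 0.531) in WT, -0.01 in KO and -0.23 averaged (edgeR adjusted p = 0.657), and the interaction of 0.45 did not pass the test (edgeR adjusted p = 0.998). Single aortae moved these values: without WT-HFD 2 the diet effect was -0.23 in WT and -0.12 averaged, and without KO-HFD 1 the interaction was 0.17.

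Rgs3 was the steadiest member of the aorta, at 60.3 to 78.2 FPM in all 14 mice, with a diet effect of -0.03 averaged. Rgs10 was at 2.48 to 4.51 FPM, with 0.12 averaged. Rgs1 had a diet effect of 1.11 (SE 0.764, edgeR adjusted p = 0.498) in WT, -0.86 (edgeR adjusted p = 0.693) in KO and 0.12 averaged. The interaction was -1.97 (SE 0.913, edgeR adjusted p = 0.998). Rgs1 exceeded 1.02 FPM, its highest WT level, only in KO aortae (1.22 to 2.72 FPM). It passed the filter on low counts through these, so that no conclusion is drawn from its interaction. Without WT-SFD 2 the value in WT was 2.26 and the interaction -3.12, and without KO-SFD 3 the value in KO was -0.31.

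**Figure D4:**
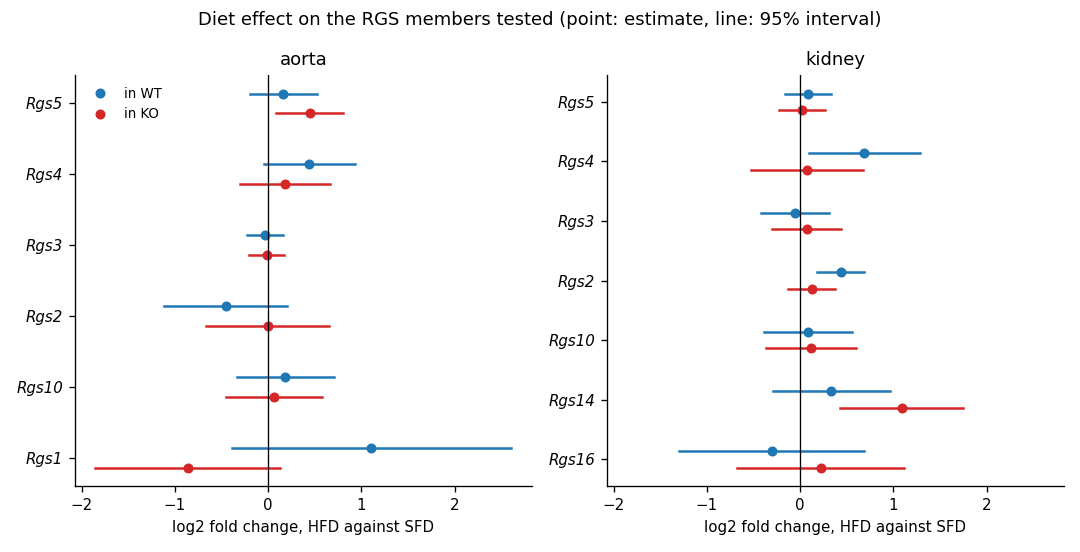
Log2 fold change of HFD against SFD (x axis) for the 6 members tested in the aorta (left) and the 7 tested in the kidney (right), in WT and in KO mice, with points for estimates and lines for 95% intervals. The interval excludes 0 for Rgs5 in KO aortae, for Rgs2 and Rgs4 in WT kidneys and for Rgs14 in KO kidneys, and none of these was called after adjustment over all genes.

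The members were chosen by a value measured in the aorta, with earlier results of these data known. The kidney shows the same genes in a second organ of this model. All members but Rgs1 passed the filter on low counts, and none of these 7 was called in any of the 7 kidney comparisons. For HFD against SFD, the share called among all 15034 genes was 0.964% in WT, 2.39% in KO and 4.62% averaged over the genotypes. For KO against WT it was 0.0133% with SFD, 0% with HFD and 0.0133% averaged over the diets, and it was 0% for the interaction. At an unadjusted p under 0.05 stood 2 members for diet in WT (Rgs2 and Rgs4), 1 in KO (Rgs14) and 2 averaged (Rgs2 and Rgs14), against 8.05%, 16.1% and 18.2% of all genes. For KO against WT, 1 member (Rgs2) stood at this level with SFD, 0 with HFD and 1 (Rgs2) averaged, against 8.69%, 1.75% and 5.93% of all genes, and for the interaction 0 members against 3.35%. DESeq2 called 0 members in each kidney comparison, against 263 (WT), 695 (KO) and 1101 (averaged) of all genes for diet. For KO against WT it called 26 genes with SFD, 1 with HFD and 17 averaged, and for the interaction 1.

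Rgs5 in the kidney had 26.6, 27.6, 25.2 and 25.1 FPM in WT-SFD, 30.9, 24.5, 23.2 and 32.3 FPM in WT-HFD, 31.5, 25.7, 29.7 and 25.9 FPM in KO-SFD and 27.3, 30.8, 23.1 and 32.6 FPM in KO-HFD mice. All groups overlapped. KO against WT was 0.11 with SFD, 0.04 with HFD and 0.08 averaged (SE 0.089, 95% interval -0.10 to 0.25, edgeR adjusted p = 0.895). The averaged value of the aorta, which was used for the choice, was 0.64, and the difference between the tissues was not tested. HFD against SFD was 0.09 (edgeR adjusted p = 0.971) in WT, 0.02 (edgeR adjusted p = 0.963) in KO and 0.05 (edgeR adjusted p = 0.799) averaged. With the smooth muscle and pericyte markers as covariate, KO against WT averaged was -0.01.

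Rgs2 in the kidney was not called in any comparison. It had 13.7, 13.1, 16.9 and 16.6 FPM in WT-SFD, 19.7, 24.3, 18.1 and 19.8 FPM in WT-HFD, 15.9, 22.1, 22.9 and 18.5 FPM in KO-SFD and 22.2, 21.4, 22.5 and 20.6 FPM in KO-HFD mice. All 4 WT-HFD kidneys lay above all 4 WT-SFD kidneys, while in KO the diets overlapped. At an unadjusted p under 0.05 stood 8.05% of all genes for diet in WT. The share of all genes without overlap was not computed, so that no conclusion is drawn from this separation. The diet effect was 0.43 (SE 0.130, edgeR adjusted p = 0.197) in WT, 0.13 (edgeR adjusted p = 0.662) in KO and 0.28 (SE 0.0914, edgeR adjusted p = 0.0975) averaged. KO against WT was 0.39 (SE 0.130, edgeR adjusted p = 0.456) with SFD and 0.08 with HFD, and the interaction was -0.31 (SE 0.183, edgeR adjusted p = 1.0). None of these values passed the test over all genes.

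Rgs14 had 1.03, 0.942, 1.37 and 1.076 FPM in WT-SFD, 1.43, 1.68, 1.53 and 1.10 FPM in WT-HFD, 0.675, 0.808, 0.920 and 0.874 FPM in KO-SFD and 1.63, 2.81, 0.633 and 1.61 FPM in KO-HFD kidneys. In KO, 3 HFD kidneys were above all SFD kidneys and KO-HFD 3 was below them. All KO-SFD kidneys lay below all WT-SFD kidneys, at -0.47 for KO against WT (SE 0.359, edgeR adjusted p = 0.696). Here too, the share of all genes without overlap was not computed. The diet effect was 1.09 (SE 0.336, edgeR adjusted p = 0.109) in KO, 0.34 (edgeR adjusted p = 0.926) in WT and 0.71 (SE 0.233, edgeR adjusted p = 0.0983) averaged, and the interaction was 0.75 (SE 0.468). Without KO-HFD 3 the value in KO was 1.33 (edgeR adjusted p = 0.0193) and averaged 0.83 (edgeR adjusted p = 0.0174). The highest kidney, KO-HFD 2, also had the highest sum of leucocyte markers, 302 FPM against 119 to 232 FPM in the other 15, and KO-HFD 3 had the lowest. Without KO-HFD 2 the value in KO was 0.68 (edgeR adjusted p = 0.364) and the interaction 0.35. The part of leucocytes in it was not tested.

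Rgs4 in the kidney was at 0.867 to 2.72 FPM, with a diet effect of 0.69 (SE 0.303, edgeR adjusted p = 0.556) in WT and 0.07 (edgeR adjusted p = 0.929) in KO, and an interaction of -0.62 (SE 0.433). Without WT-HFD 4 its diet effect in WT was 0.42 and the interaction -0.34. Rgs3 was at 12.3 to 23.4 FPM, with 0.01 for diet and -0.14 for genotype, each averaged. Rgs10 was at 2.22 to 4.49 FPM, with 0.10 and -0.03. Rgs16 was at 0.188 to 1.01 FPM on 3 to 28 reads, with -0.04 (SE 0.339) and 0.43. Its genotype value was 0.22 without KO-SFD 1 and 0.79 without WT-SFD 3. Rgs1 was at 0 to 0.995 FPM, highest in KO-HFD 2, and did not pass the filter on low counts. Without any filter, the diet effect of Rgs1 was 2.10 in KO (edgeR adjusted p = 0.207) and 1.38 averaged (edgeR adjusted p = 0.172).

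**Figure D5:**
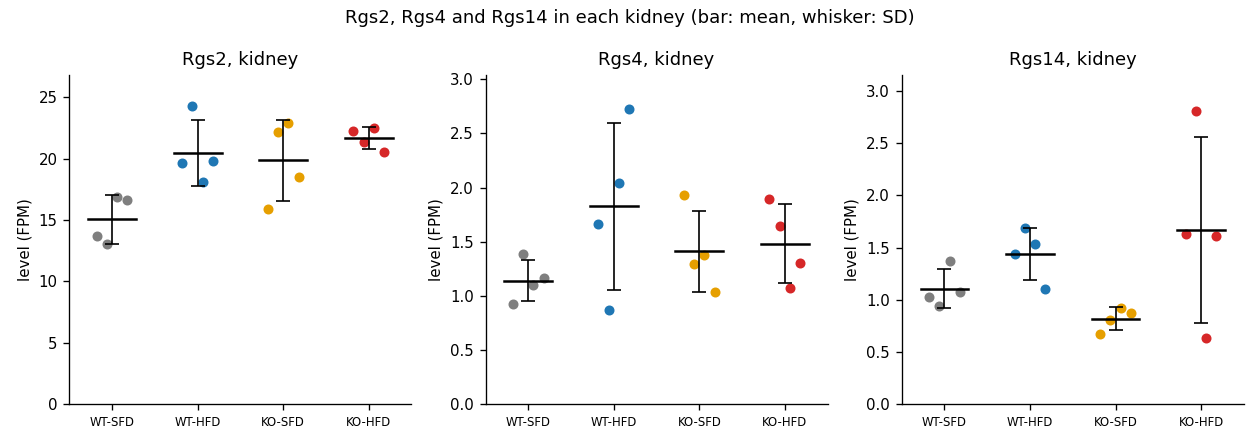
Levels of Rgs2, Rgs4 and Rgs14 in FPM (y axes, from 0) in each kidney of the 4 groups, with 1 point per mouse, the mean as bar and the SD as whisker. For Rgs2 all WT-HFD points lie above all WT-SFD points, and for Rgs14 3 of 4 KO-HFD points lie above all KO-SFD points.

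Other genes of the pathway were followed as lists of receptors, G proteins and effectors. Of 15 vasoconstrictor receptors tested in the aorta, 1 was lower with HFD averaged over the genotypes and 0 were higher, against 3.95% of all genes called, and none was called within a genotype. This was Adra1a, an alpha-1 adrenoceptor, at -1.67 (SE 0.389, edgeR adjusted p = 0.0275). Its level was 4.48 to 45.7 FPM in WT-SFD and 4.49 to 6.46 FPM in WT-HFD aortae, and without the adipocyte-rich WT-SFD 1, WT-SFD 2 and KO-SFD 1 the value was -0.0036 (edgeR adjusted p = 1.0). With single libraries left out the value was -1.91 to -1.30, and the call was lost without any of 10 of the 14 aortae, 7 of them with HFD (edgeR adjusted p = 0.0545 to 0.127). F2r, the thrombin receptor, had means of 33.2 FPM in WT-SFD, 47.8 in WT-HFD, 77.9 in KO-SFD and 97.0 in KO-HFD aortae. Its genotypes are given as a description without a test, as for all genes of the aorta. The diet effect of F2r averaged over the genotypes was 0.42 (SE 0.134, edgeR adjusted p = 0.097) and was not called. It passed with DESeq2 (adjusted p = 0.0443), which called 1007 of all genes. It also passed without WT-SFD 3 (edgeR adjusted p = 0.0068), the only WT-SFD aorta poor in adipocyte markers, where 1929 of all genes were called. With single libraries left out it ran from 0.32 (without KO-SFD 1) to 0.55 (without WT-SFD 3). In the kidney, KO against WT averaged over the diets was -0.70 for F2r (SE 0.229, edgeR adjusted p = 0.822).

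In the kidney, 1 of 13 vasoconstrictor receptors was called with HFD, again Adra1a, which was higher in KO by 1.19 (SE 0.232, edgeR adjusted p = 0.0096) and averaged by 0.80 (SE 0.161, edgeR adjusted p = 0.0072). Its group means were 7.97 ± 2.57 in WT-SFD, 10.6 ± 2.43 in WT-HFD, 5.44 ± 1.17 in KO-SFD and 12.4 ± 2.20 FPM in KO-HFD kidneys (SD, n = 4 each). Of 11 G alpha subunits, 2 were higher with HFD averaged over the genotypes. The share of all genes called was 4.62% averaged and 2.39% in KO. These were Gna12, at 0.39 (SE 0.0867, edgeR adjusted p = 0.0138), and Gna14, a member of the Gq class, at 0.59 (SE 0.135, edgeR adjusted p = 0.0161). In KO mice alone Gna12 was the only subunit called, at 0.48 (SE 0.123, edgeR adjusted p = 0.0497), just inside the limit. This call was lost without the low count filter (edgeR adjusted p = 0.0569), with the legacy quasi-likelihood fit (0.0543), with only the groups compared (0.108), with the smooth muscle and pericyte markers as covariate (0.423) and without any of 10 of the 16 kidneys (edgeR adjusted p = 0.0506 to 0.164). Group means of Gna12 were 126 ± 15.97 in WT-SFD, 154 ± 14.99 in WT-HFD, 111 ± 12.4 in KO-SFD and 155 ± 23.0 FPM in KO-HFD kidneys (SD, n = 4 each). With the same covariate, Adra1a, Gna12 and Gna14 kept their sign but no longer passed the test (0.62, 0.27 and 0.43 averaged, edgeR adjusted p = 0.163, 0.247 and 0.269). In aortae none of the 11 G alpha subunits was called for diet, and at an unadjusted p under 0.05 stood 1 in WT, 2 in KO and 1 averaged, against 17.0%, 7.85% and 18.8% of all genes.

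By the edgeR test, 0 genes were called in the remaining lists for any tested comparison of either tissue: 9 (aorta) and 7 (kidney) other RGS family genes, 7 G protein coupled receptor kinases and arrestins in each, 12 effectors of Gq and G12/13 in each, and 18 immediate early genes in the aorta and 16 in kidneys. The median log2 fold change for diet averaged over the genotypes was 0.04 for the other RGS genes, 0.14 for the effectors and 0.33 for the immediate early genes in the aorta, and -0.25, 0.11 and 0.13 for these lists in kidneys. For the immediate early genes of the aorta it was 0.57 in WT (5 of 18 at an unadjusted p under 0.05, against 17.0% of all genes) and 0.05 in KO (0 of 18, against 7.85%), and the difference was not tested for the list. At an unadjusted p under 0.05 for diet averaged stood 1 of the other RGS genes, 5 of the effectors and 3 of the immediate early genes in the aorta and 2 each in the kidney, and 1 of the kinases and arrestins in each tissue, against 18.8% (aorta) and 18.2% (kidney) of all genes. No gene of the pathway lists was called for KO against WT in the kidney.

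Among cell type markers, 13 of 17 adipocyte markers, 1 of 6 endothelial markers (Kdr) and 1 of 5 striated muscle markers (Actc1) were lower with HFD in the aorta, averaged over the genotypes, against 3.95% of all genes called. Without WT-SFD 1, WT-SFD 2 and KO-SFD 1, 0 of all genes were called in this comparison, and 3 with the adipocyte covariate. No marker of smooth muscle, pericytes, fibroblasts, leucocytes or Schwann cells was called there. In the kidney, Kcnj8, the ATP-sensitive potassium channel subunit of pericytes and smooth muscle, was the only pericyte marker of 8 called for diet, at -0.45 (SE 0.0960, edgeR adjusted p = 0.0098), and at -0.36 with the smooth muscle and pericyte covariate, which includes it (edgeR adjusted p = 0.183). Among 5 proximal tubule markers, the transporters Slc5a2 and Slc5a12 were higher and the other 3 were not called. Among 16 adipocyte markers, Lep was higher and Pnpla2 and Cfd were lower. Among all genes 4.62% were called in this comparison, diet averaged over the genotypes. No marker of smooth muscle, endothelium, fibroblasts, leucocytes, Schwann cells, striated muscle or podocytes was called for diet in the kidney.

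The genes most like Rgs5 were sought by the Pearson correlation of log2 levels over libraries after removing the group means. In the aorta they included Incenp (0.864), Osbp (0.846), Vps36 (0.844) and the pseudogene Gm12435 (0.841), over 14 libraries and 10066 genes. In the kidney they were Rab31 (0.863), Cyp1b1 (0.826), Fbn1 (0.819), Egflam (0.808) and Nlgn2 (0.779), over 16 libraries and 10701 genes, with no gene shared between the lists. For the other members the closest gene in the aorta was Mgat4a for Rgs4 (0.972), Kat2b for Rgs3 (0.893), Fance for Rgs2 (0.878), Gm2a for Rgs10 (0.845) and Sgk1 for Rgs1 (0.834). In the kidney it was Camk2n2 for Rgs2 (0.927), C1qa, a complement gene of macrophages, for Rgs10 (0.928), Bend3 for Rgs3 (0.893), Slc6a15 for Rgs4 (0.789), Srgn for Rgs14 (0.851) and Btc for Rgs16 (0.930). These values describe the libraries, which share depth and tissue content.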

How the data were processed

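RNA of 14 aortae and 16 kidneys was sequenced paired-end after removal of ribosomal RNA. Aortae were sequenced at a university core and kidneys by a company, which also trimmed the kidney reads. The authors clipped adapters with cutadapt, aligned reads to mm10 with TopHat and counted them per gene with featureCounts, and the raw counts were deposited per tissue (strand setting not given in the sources used here). Without the strand setting, reads of overlapping or antisense genes cannot be told apart. No library was pooled. Genes of chromosomes 9, X, Y and MT and of part of another chromosome were not analysed here.

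Counts were fitted per tissue with edgeR 4.0.16 in R 4.3.3 (TMM scaling, filterByExpr by group, quasi-likelihood fit over the 4 groups, Benjamini-Hochberg adjustment over all genes tested). Called were genes with an adjusted p below 0.05. SE was the log2 fold change divided by the root of F, and intervals are 1.96 SE on either side. FPKM used union exon lengths of the GENCODE M21 annotation of GRCm38. DESeq2 1.42.0, other scaling, filters, limits and marker covariates, and leaving out each library, were alternatives. The model was tested on simulated data. Leaving out the aortae WT-SFD 1, WT-SFD 2 and KO-SFD 1 was chosen after seeing the data. Replicates were separate mice.

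Named were the members, Egfr, the genes of the receptor, G protein, kinase, effector, immediate early and RGS lists, and, as a description, for Rgs5 the 5 and for each other member the 1 gene most like it (TMM log2 CPM with a prior count of 2, mean above 5 FPM). One gene that this rule names is not reported here. Members and lists were chosen with earlier results of these data known. Cell type markers that were called were named after their values were seen. Promoters and motif searches used RefSeq sequences.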

Additional observations from a re-analysis of the deposited data

Results flagged for a closer look

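Among 54 groups of 4 mice, 4 held a value far from the other 3, with a gap to the nearest above Dixon's 95% critical value as a share of the group's range. Chance alone gives this in about 1 of 20 groups. Rgs5 was at 2029 FPM in aorta WT-HFD 4, against 1570, 1603 and 1642.3 FPM in the rest of its group (gap 0.842 of the range), and still below all KO-HFD aortae. Rgs5 was at 2362 FPM in aorta KO-HFD 1, against 3096, 3098 and 3221 FPM (0.855), and this mouse also had the lowest Rgs4 of its group. Rgs4 was at 68.7 FPM in aorta WT-HFD 2, against 55.3, 56.1 and 56.9 FPM (0.876). Rgs16 was at 1.01 FPM, on 21 reads, in kidney KO-SFD 1, against 0.431, 0.437 and 0.460 FPM (0.950). With library totals in place of TMM factors, no outlier was left in the first 3 of these groups. Aorta WT-HFD 4 (TMM factor 0.862, 43.1% small RNA) then had 1750.1 CPM of Rgs5 against 1517 to 1705 CPM, aorta KO-HFD 1 (TMM factor 1.21, 18.4% small RNA) 2855 CPM against 2897 to 3299 CPM, and aorta WT-HFD 2 72.0 CPM of Rgs4 against 48.4 to 59.1 CPM.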

How the results depend on the processing

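Of 1494 recomputed log2 fold changes, 1394 kept their direction and their side of the threshold, or moved by less than the spread. No member was called in the main fits, so that a tested value could change in size and still count as kept. Rgs1 for diet in WT aortae, at 1.11 and without WT-SFD 2 at 2.26, counts as kept. The count is therefore no measure of how steady the sizes were. With DESeq2 or RLE factors, Rgs2 for diet in KO aortae was 0.0021 and 0.0015. With the adipocyte covariate it was 0.15, and for diet Rgs4 was -0.19 in KO and -0.047 averaged, Rgs3 0.043 and Rgs1 -0.020 averaged. Without the aortae WT-SFD 1, WT-SFD 2 and KO-SFD 1, Rgs2 was 0.22 in KO, Rgs3 0.070 averaged, and Rgs4 -0.20 in WT, -0.066 averaged and 0.26 for the interaction. With the smooth muscle and pericyte covariate in the kidney, Rgs16 for diet was 0.38, and for KO against WT Rgs5 was -0.0056 with SFD, -0.014 with HFD and -0.010 averaged, and Rgs10 0.028 averaged. The cause was not tested.

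With each library left out in turn, values crossed 0 for Rgs2 diet in KO aortae (-0.26 to 0.22), Rgs1 (-0.062 to 0.70) and Rgs3 (-0.046 to 0.032) diet averaged in the aorta, Rgs3 (-0.084 to 0.077) and Rgs16 (-0.19 to 0.32) diet averaged, Rgs4 (-0.054 to 0.27) and Rgs5 (-0.055 to 0.11) diet in KO, Rgs5 for genotype with HFD (-0.036 to 0.13) and Rgs10 for genotype averaged (-0.11 to 0.047) in the kidney. As descriptions of KO against WT aortae, Rgs2 with SFD (-0.35 to 0.039) and Rgs10 with SFD (-0.12 to 0.31) and HFD (-0.20 to 0.10) crossed 0 too. The number of members called ran from 0 to 1 for diet in WT aortae, from 0 to 2 averaged in the aorta, and from 0 to 1 for diet in KO and averaged in the kidney. The most were called without aorta WT-SFD 3, where 1907 of all genes were called in WT and 1929 averaged. The members called there were Rgs4 (averaged 0.55, edgeR adjusted p = 0.00933) and Rgs16. Rgs16, also called without aorta KO-SFD 3, had 0 to 3 reads in every HFD aorta. It passed the filter there only through SFD aortae in which it was high, so that these calls are void. Without any filter its diet effect was -2.25 in WT, -1.88 in KO and -2.07 averaged (edgeR adjusted p = 0.357, 0.859 and 0.183). Without kidney KO-HFD 3 the member called was Rgs14.

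Genes called in all moved further. DESeq2 called 666 for diet in WT, 8 in KO, 1007 averaged and 2 for the interaction in the aorta, and 263, 695, 1101 and 1 in the kidney, with 26, 1 and 17 for KO against WT with SFD, with HFD and averaged. For diet in the aorta, library totals gave 312 in WT, no filter 347, the adipocyte covariate 1 in WT, 2 in KO and 3 averaged, and the 3 left-out aortae 1 in WT and 0 averaged. The limit of 0.001 left 0 averaged in the aorta and 26, 50 and 153 in the kidney. The smooth muscle and pericyte covariate left 99 in KO and 237 averaged, and fitting only the groups compared 235 in KO. Leaving out a library gave 0 to 1907 in WT, 0 to 15 in KO and 0 to 1929 averaged in the aorta. In the kidney it gave 99 to 156 in WT, 203 (without KO-HFD 4) to 422 in KO and 506 to 733 averaged, and for KO against WT 0 to 5 with SFD, 0 to 1 with HFD and 1 to 3 averaged. No paired analysis was possible because the labels carry no replicate numbers shared between groups. Depth limits Rgs1, Rgs14 and Rgs16 most, with few reads per library.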
